A study of Mus musculus with 8 samples.

Results

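The 10 genes described here are factors and markers of the primitive and visceral endoderm of the mouse embryo. They are the transcription factors Gata6, Gata4, Sox17, Sox7 and Hnf4a, the endocytic adaptor Dab2, the uptake receptor Cubn with its partner Amn, and the secreted proteins Afp and Ttr. Their probes were taken by gene name from the probes of a whole-genome mouse array that were not controls. This gave 20 of 41174 probes, on 38 spots of each array, because 1 Afp probe and 1 Gata4 probe were spotted 10 times each. Of the 10 genes, 5 were higher in butyrate than in LIF (Sox17, Gata6, Dab2, Afp and Sox7), 1 was lower (Hnf4a), 3 did not pass the test (Gata4, Cubn and Amn) and 1 was not well above background in any sample (Ttr). Of all 17187 genes with a tested probe, which leaves out genes such as Ttr, 41.3% were higher by the same test and 33% lower. Sox17 had the largest ratio with the scaling used here, at 2.04-fold higher, while Afp, which was not above background in LIF, had a larger one by the scanner software and in the authors' deposited table.

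The RNA came from R1 cells, a line of mouse embryonic stem cells, in 8 samples on 4 Agilent arrays with 2 colours. The 4 butyrate samples had been kept for 15 passages in 0.2 mM sodium butyrate without leukaemia inhibitory factor (LIF). Butyrate is a short fatty acid and an inhibitor of histone deacetylases. The 4 LIF samples had been kept in LIF, the cytokine that maintains mouse embryonic stem cells, without feeder cells. Both were grown on gelatin, with 15% serum replacement in the medium. The effects of adding butyrate and of withdrawing LIF cannot be told apart in this design. On each array a butyrate sample in Cy5 was paired with a LIF sample in Cy3, and the pair shared a replicate number. No array had the opposite labelling, so an effect of the dye cannot be told apart from one of the treatment. Replicates are described as independent in the labels, with no separate line or derivation named. The p-values therefore cover only the variation among these samples, part of which may be technical. The samples are whole cultures, in which fewer cells of a type and less RNA per cell cannot be told apart.

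The median spot signal was 110.0 to 111.4 in the butyrate channel and 62.8 to 66.0 in the LIF channel. Of the spots, 62.7% to 63.9% were well above background in the butyrate channel and 57.9% to 61.2% in the LIF channel. The LIF channel was thus the dimmer one, so raw signal and detection are not on the same scale in both channels. Values below are of 2 kinds. A level is a normalized log2 intensity of 1 sample, and levels are compared only within a probe. A log2 ratio is butyrate over LIF within an array, given as a mean ± SD over 4 arrays, on a scale where 1 is 2-fold. A probe was tested when 1 of its channels was well above background on 3 or 4 arrays. It passed when the adjusted p of limma, a linear model fitted over all 25658 tested probes, was under 0.05. The background correction added an offset of 50 to each signal, which shrinks the ratios of dim probes. The brightest tested probe stood for a gene. By that probe 41.3% of 17187 genes passed as higher in butyrate and 33% as lower, and 4.97% passed at 2-fold higher or more. The median log2 ratio of these genes was 0.03, and the middle 50% lay between −0.20 and 0.31.

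The primitive endoderm arises in the blastocyst from the same inner cell mass as the pluripotent epiblast. Gata6, Gata4, Sox17 and Sox7 are transcription factors that mark and drive it. Its descendants are the parietal endoderm, which lays down a thick basement membrane, and the visceral endoderm, an absorptive layer around the embryo. The visceral endoderm depends on Hnf4a, takes up maternal nutrients through cubilin, amnionless, megalin and the adaptor Dab2, and secretes serum proteins such as alpha-fetoprotein (Afp) and transthyretin (Ttr). Mouse embryonic stem cells forced to express Gata4 or Gata6 become cells of this lineage.

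The RefSeq promoter entries searched (build GRCm38.p6) cover 5 of the 10 genes, with 7 start sites. Promoters of the remaining genes were not searched, which does not mean that they lack an entry. The 250 bases before the start are shown for Afp and Hnf4a, a secreted product and a regulator of the visceral endoderm that moved in opposite directions on these arrays. The stretches are chr5:90490464-90490713 on the plus strand for Afp and chr2:163506607-163506856 on the plus strand for 1 of the 2 Hnf4a starts. Capitals mark matches to the motifs searched, on either strand.
Afp: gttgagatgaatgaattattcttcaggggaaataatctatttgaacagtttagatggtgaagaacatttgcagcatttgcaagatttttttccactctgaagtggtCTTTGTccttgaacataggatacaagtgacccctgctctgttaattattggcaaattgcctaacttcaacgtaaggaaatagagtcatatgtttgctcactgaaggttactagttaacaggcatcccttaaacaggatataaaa
Hnf4a: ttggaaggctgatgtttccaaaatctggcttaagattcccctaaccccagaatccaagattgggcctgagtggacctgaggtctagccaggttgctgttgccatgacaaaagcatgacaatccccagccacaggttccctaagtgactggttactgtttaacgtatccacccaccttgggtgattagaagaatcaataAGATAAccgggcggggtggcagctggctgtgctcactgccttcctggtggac

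The motifs searched were AGATAA for GATA factors, CAAAGTCCA for HNF4 and ACAAAG for SOX factors, each with its reverse complement. The Afp stretch holds the SOX motif on the minus strand, starting 144 bases before the gene start, a motif found in 16.5% of 32851 promoters of the same length. The Hnf4a stretch holds the GATA motif 52 bases before the start, as do 9.99% of promoters. No match to any of the 3 motifs was found in the other 5 entries, which belong to Amn, Cubn, Dab2 and the second Hnf4a start. The HNF4 motif, which 0.384% of promoters hold, was in none of the 7 entries searched. A match of letters is a description and shows no binding.

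Sox17, an HMG-box transcription factor of primitive and definitive endoderm, was higher in butyrate. Its level by the brightest probe was 8.58, 8.62, 8.42 and 8.34 in the butyrate samples 1 to 4, against 7.31, 7.75, 7.40 and 7.37 in the LIF samples. Every butyrate sample lay above every LIF sample, and the highest LIF value was on array 2. The log2 ratio was 1.03 ± 0.17 (SD, n = 4; limma, adjusted p = 1.66e-06), or 2.04-fold higher, positive on 4 of 4 arrays. A second probe gave levels of 8.32, 8.20, 8.30 and 8.30 in butyrate, against 7.13, 7.44, 7.18 and 7.24 in LIF, with a log2 ratio of 1.03 ± 0.19 (limma, adjusted p = 2.79e-06). The 2 probes thus gave the same size. Another 2 Sox17 probes were well above background on no array in either channel and were not tested. Of all genes, 4.65% had a higher ratio than Sox17.

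Gata6, the zinc-finger factor that is among the first marks of primitive endoderm, was also higher in butyrate by its brightest probe. The levels were 8.46, 8.38, 8.43 and 8.43 in butyrate, against 7.59, 7.86, 7.74 and 7.81 in LIF, with no overlap. The log2 ratio was 0.68 ± 0.15 (n = 4; limma, adjusted p = 1.07e-05), or 1.60-fold higher, positive on 4 of 4 arrays. The 2 other Gata6 probes gave signals near background, where ratios are least certain, and did not show this difference. The first had levels of 6.36 to 6.46 in butyrate, where it was well above background on 4 arrays, against 6.37 to 6.47 in LIF, where it was so on none, and a log2 ratio of 0.01 ± 0.06 (limma, adjusted p = 0.874). Its signal minus local background was 16.2 to 22.2 in butyrate and 0.35 to 6.56 in LIF, and since the LIF channel was not above background the ratio does not show whether this probe differs from the brightest. The second, well above background on 3 arrays in each channel, gave −0.07 ± 0.03 (limma, adjusted p = 0.0894). The scanner software gave this second probe −0.55 ± 0.20 and the authors' deposited table −0.69 ± 0.24, both opposite in sign to the brightest probe. Taken as the mean of its 3 probes, Gata6 had a log2 ratio of 0.20. The files used here do not place the probes within the gene.

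Gata4, the partner of Gata6 in this lineage, was close to background. Its brightest probe had levels of 6.40, 6.47, 6.44 and 6.38 in butyrate, against 6.34, 6.42, 6.49 and 6.42 in LIF. The groups overlapped, and the log2 ratio was 0.01 ± 0.06 (n = 4; limma, adjusted p = 0.875). This probe was well above background on 3 butyrate arrays and 1 LIF array. The scanner software gave it 0.36 ± 0.88. The second Gata4 probe, on 10 spots, was not tested. Of its 10 spots, 1 was above background in the butyrate channel on each of arrays 1 and 2 and none elsewhere. The scanner software gave this probe a log2 ratio of 0.94 ± 0.07, and it was 0.91 ± 0.10 from the authors' deposited table, although neither channel was well above background by most of its spots on any array.

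Sox7, a relative of Sox17 that marks primitive and parietal endoderm, was slightly higher in butyrate. The levels were 6.85, 6.96, 6.88 and 6.95 in butyrate, against 6.75, 6.85, 6.81 and 6.65 in LIF. The groups did not overlap, but the lowest butyrate sample and the highest LIF sample met at 6.85. The log2 ratio was 0.14 ± 0.10 (n = 4; limma, adjusted p = 0.0225), or 1.10-fold higher, positive on 4 of 4 arrays. Without array 4, which had the largest ratio at 0.29, it was 0.09 and did not pass (adjusted p = 0.0798). Its second probe was well above background on no array.

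Hnf4a, the nuclear receptor that the visceral endoderm needs to differentiate, was the member that was lower in butyrate. By the brightest probe the levels were 6.33, 6.56, 6.45 and 6.45 in butyrate, against 6.48, 6.61, 6.72 and 6.59 in LIF. The groups overlapped, although the ratio was negative on each of the 4 arrays. The log2 ratio was −0.15 ± 0.09 (n = 4; limma, adjusted p = 0.0138), or 1.11-fold lower, and without array 3 it was −0.11 and did not pass (adjusted p = 0.0862). Nor did it pass with centring on the median, at −0.19 (adjusted p = 0.0577), whereas the scanner software gave −0.55 and the authors' deposited table −0.64. A second probe had levels of 6.21, 6.38, 6.26 and 6.22 in butyrate, where it was well above background on no array, against 6.67, 6.56, 6.83 and 6.67 in LIF, where it was so on all 4. By this probe, and with the scaling used here, Hnf4a was at least 1.34-fold lower in butyrate, taking its own butyrate level as the most it could be. The log2 ratio was −0.42 ± 0.16 (limma, adjusted p = 0.000306). Its remaining probe was not well above background anywhere.

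**Figure D1:**
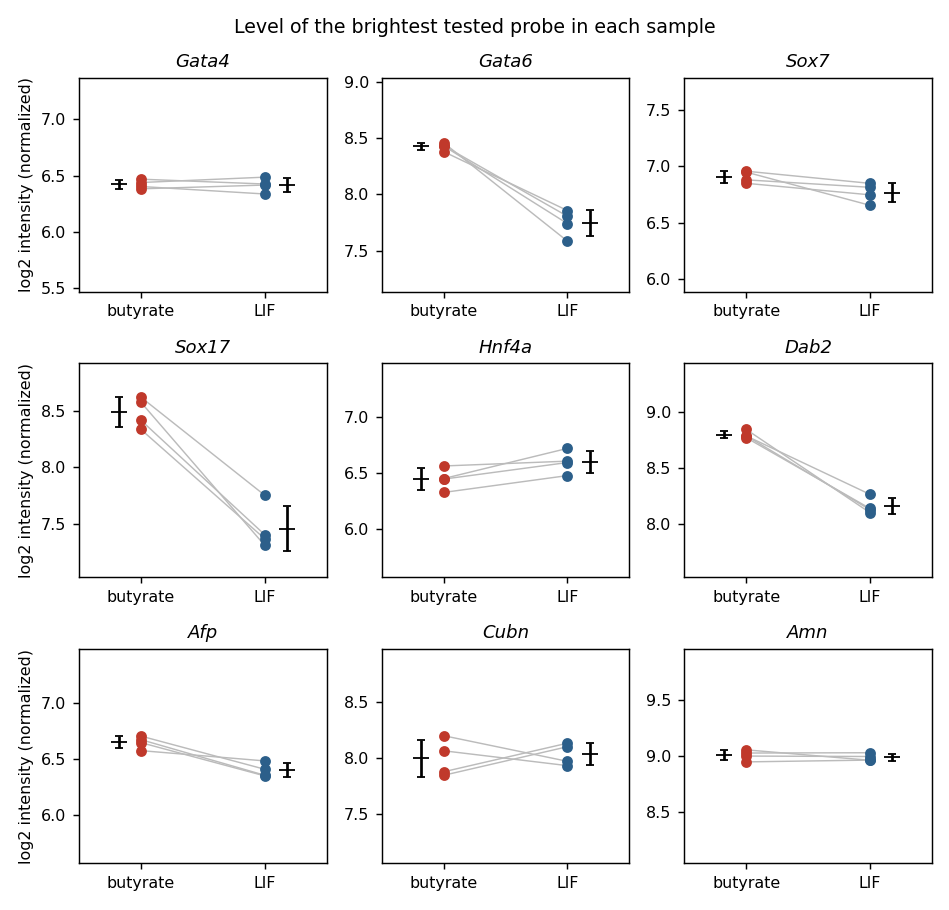
Normalized log2 intensity of the brightest tested probe of the 9 tested genes in each sample, with butyrate left of LIF. Grey lines join samples of the same array, and bars give the mean ± SD of 4 samples. The butyrate points lie above all LIF points for Gata6, Sox7, Sox17, Dab2 and Afp, and overlap with them for Gata4, Hnf4a, Cubn and Amn.

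Dab2, the adaptor that links cubilin and megalin to clathrin and is a classical mark of primitive endoderm, was higher in butyrate. Its levels were 8.79, 8.79, 8.77 and 8.84 in butyrate, against 8.13, 8.27, 8.14 and 8.10 in LIF. Samples of a group lay close together and the groups did not overlap. The log2 ratio was 0.64 ± 0.09 (n = 4; limma, adjusted p = 3.64e-06), or 1.55-fold higher, positive on 4 of 4 arrays. Its second probe, above background on 1 butyrate array, was not tested.

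Cubn encodes cubilin, the receptor for intrinsic factor and other ligands in absorptive epithelia, and Amn encodes amnionless, the membrane protein that carries cubilin to the cell surface. Cubn had levels of 8.20, 8.06, 7.85 and 7.88 in butyrate, against 7.97, 7.93, 8.10 and 8.13 in LIF. Butyrate was higher on arrays 1 and 2 and lower on arrays 3 and 4, and the groups overlapped. The log2 ratio was −0.04 ± 0.25 (n = 4; limma, adjusted p = 0.707), and 2.17% of genes had a larger SD. Amn had levels of 9.05, 9.00, 9.03 and 8.95 in butyrate, against 8.96, 9.00, 9.03 and 8.96 in LIF. These overlapped almost fully, with a log2 ratio of 0.02 ± 0.05 (n = 4; limma, adjusted p = 0.655). Both genes were well above background in all 8 samples.

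Afp, the main serum protein of the fetus, was well above background in butyrate and not in LIF. All 10 spots of its probe were well above background on each of the 4 butyrate arrays, against 0, 0, 0 and 1 of 10 in LIF. The signal minus local background was 36.7, 34.2, 37.9 and 42.4 intensity units in butyrate, against −2.8, −0.764, 0.667 and 5.68 in LIF. The LIF values thus lay around 0. These raw values are not on 1 scale across channels. For Amn, with a log2 ratio of 0.02, they were 574 to 626 in butyrate and 289 to 331 in LIF. The normalized levels were 6.64, 6.57, 6.67 and 6.70 in butyrate, against 6.35, 6.48, 6.35 and 6.41 in LIF, with no overlap. With the scaling used here Afp was at least 1.19-fold higher in butyrate, taking its own LIF level as the most it could be. The log2 ratio was 0.25 ± 0.11 (n = 4, limma, adjusted p = 0.00146), positive on 4 of 4 arrays. The size of this ratio depended on the scaling. The scanner software's own ratio was 1.77 ± 0.17, a 3.41-fold difference, and centring on the median without loess gave 0.21 and did not pass (adjusted p = 0.112).

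Ttr, the carrier of thyroid hormone and retinol-binding protein that visceral endoderm makes in large amounts, had 1 probe, well above background in none of the 8 samples. Its levels were 6.04, 6.16, 6.11 and 6.13 in butyrate, against 6.11, 6.14, 6.14 and 6.19 in LIF. It was not tested, and no direction is given. By their brightest probes, then, Sox17, Gata6 and Dab2 had clear signal in both groups, although other probes of these genes were at or near background. Cubn and Amn had clear signal in both groups with no difference that passed. Sox7 and Afp were dim, Afp being above background in butyrate only, and Ttr, Gata4 and Hnf4a were at or near background.

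**Figure D2:**
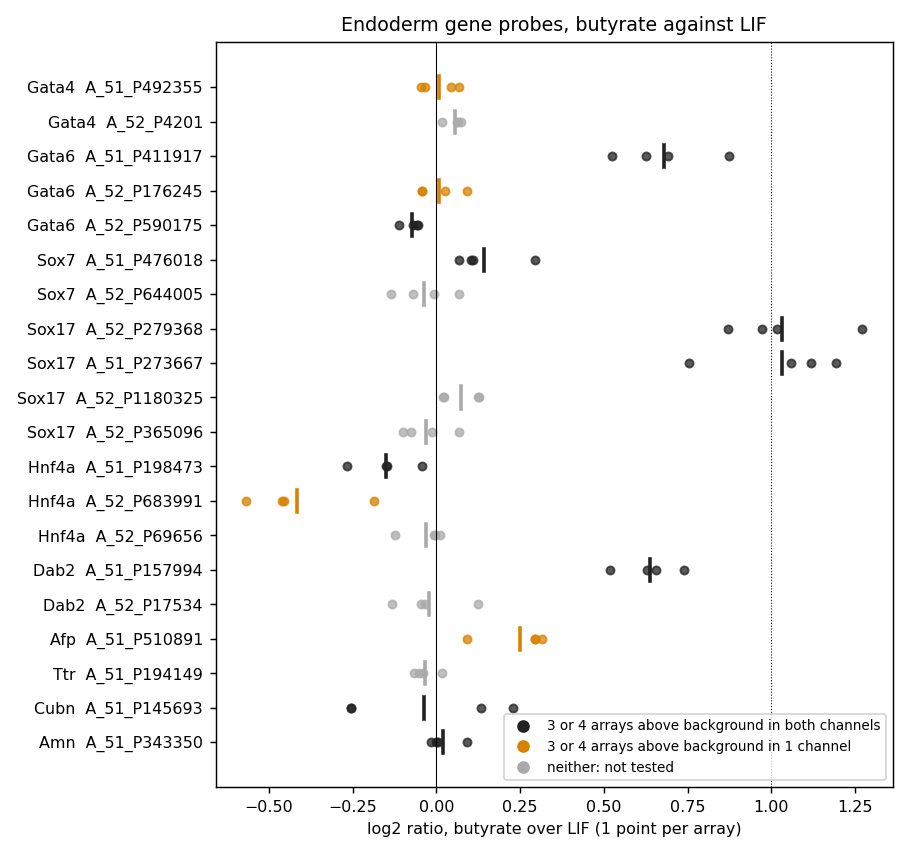
Log2 ratio of butyrate over LIF on each of the 4 arrays (points) with the mean (bar) for all 20 probes, coloured by detection. The dotted line marks 2-fold. Both tested Sox17 probes centre on 1.03, the brightest Gata6 probe lies at 0.68 while the other 2 lie near 0, and the 7 grey probes were not tested.

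Of the 9 genes tested, 5 passed as higher and 1 as lower, where 41.3% and 33% of all genes did. Their median log2 ratio was 0.14, against 0.03 for all genes. The 5 genes whose butyrate samples all lay above the LIF samples compare with 38.6% of all genes. At 2-fold or more, 1 passed as higher, against 4.97% of all genes. Read against these shares, the counts of 9 genes are no result about the set as a whole. None of the 10 genes lies on chromosome 8, 11 or 19, whose genes had median log2 ratios of 0.29, 0.21 and 0.18, higher than the −0.06 to 0.04 of the other autosomes.

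The 3 genes whose 4 ratios were nearest to those of Sox17, by root mean square difference over the 4 arrays, were Gm11487, Snhg11 and Rhobtb1. Gm11487 had a log2 ratio of 1.07 ± 0.14 and a difference of 0.0756 from Sox17. Snhg11, a host gene of small nucleolar RNAs, had 1.05 ± 0.10 and 0.0767. Rhobtb1 had 0.99 ± 0.15 and 0.0770.

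Other regulators of endoderm moved in both directions. Of 18 listed, 16 were tested, 7 passed as higher, 7 as lower and 2 did not pass, with a median log2 ratio of 0.01. With centring on the median 4 were higher and 2 lower. On that scale 62.2% of all genes passed, and 92.1% of those were higher. Among all genes 41.3% passed as higher and 33% as lower in the main fit. This list and the lists below were chosen with earlier results of these data known. Foxa2, a forkhead factor of anterior visceral and definitive endoderm, had levels of 8.38, 8.30, 8.33 and 8.32 in butyrate, against 7.59, 7.78, 7.65 and 7.56 in LIF, and a log2 ratio of 0.69 ± 0.12 (limma, adjusted p = 4.85e-06). Eomes, a T-box factor of visceral endoderm and also of trophoblast, was higher at 0.68 ± 0.21. Prdm1, a zinc-finger repressor of anterior visceral endoderm and germ cells, was lower at −0.84 ± 0.17. Cer1 and Gata5 were not detected well enough to test.

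Among secreted proteins and other genes of the visceral endoderm, 9 of the 12 tested were lower in butyrate, where 33% of all genes were. Of 22 listed, 21 were on the array, and of those tested 2 passed as higher and 1 did not pass. The median log2 ratio was −0.21, and with centring on the median 4 were lower. With that centring 62.2% of all genes passed, and 92.1% of those were higher. Apoe, an apolipoprotein, had levels of 13.29, 13.23, 13.28 and 13.29 in butyrate, against 14.67, 14.64, 14.57 and 14.77 in LIF, and was 2.62-fold lower in butyrate (limma, adjusted p = 5.10e-08). Ttpa, the transfer protein for vitamin E, was lower at −0.97 ± 0.11, and its other probe gave −1.02. Soat2, which esterifies cholesterol, was lower at −0.46 ± 0.12. Rbp4, the plasma carrier of retinol, was higher at 0.64 ± 0.06 and lies on chromosome 19. S100g, a calcium-binding protein of absorptive epithelium named here after its value was seen, was the other that was higher, at 0.12 ± 0.06. S100g was above background on no LIF array. Apoa2, 1 of the 9 that were lower and also named after its value was seen, was above background on 2 butyrate arrays. The major serum proteins of this layer, Alb, Apoa1, Apoa4, Apob, Fga, Fgb and Ambp, and also Habp2 and Ihh, were not well above background on 3 arrays in either channel.

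Among partners of cubilin and Dab2 in endocytosis, 10 of the 14 tested were higher in butyrate, where 41.3% of all genes were. Of 15 listed, 3 passed as lower and 1 did not pass, with a median log2 ratio of 0.43. Lrp2 encodes megalin, the large receptor that works with cubilin. Its levels were 12.28, 12.34, 12.15 and 12.19 in butyrate, against 10.27, 10.14, 10.45 and 10.49 in LIF, and its log2 ratio was 1.90 ± 0.25 (limma, adjusted p = 2.96e-07), or 3.74-fold higher, while its other probes gave 0.41 to 1.69. Tcn2, the carrier of cobalamin, was higher at 0.94 ± 0.14. Cltc, the heavy chain of clathrin, was higher at 0.72 ± 0.18. Ap2b1, a subunit of the clathrin adaptor at the plasma membrane, was higher at 0.71 ± 0.04. Tcn2, Cltc and Ap2b1 lie on chromosome 11. The 3 that were lower, named after their values were seen, were Myo6 (−0.25 ± 0.15), Ap2a1 (−0.22 ± 0.11) and Cd320 (−0.16 ± 0.06), and with centring on the median none passed as lower. With that centring 92.1% of all genes that passed were higher.

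Basement membrane and parietal endoderm genes were higher throughout. Of 13 listed, 12 were on the array and tested, and all 12 passed as higher, 6 of them at 2-fold or more, with a median log2 ratio of 1.03. Among all genes 41.3% passed as higher and 4.97% at 2-fold higher or more. Col4a1, a chain of the collagen of basement membranes, had levels of 11.68, 11.60, 11.59 and 11.66 in butyrate, against 8.92, 9.05, 8.85 and 8.89 in LIF. It was 6.51-fold higher, with a log2 ratio of 2.70 ± 0.11 (limma, adjusted p = 7.17e-09). Col4a2, its partner chain, was higher at 2.31 ± 0.07. Plat, the tissue plasminogen activator that parietal endoderm secretes, was higher at 2.25 ± 0.22, and its other tested probe gave 1.31. Serpinh1, a chaperone of collagen, was higher at 1.95 ± 0.09. Col4a1, Col4a2 and Plat lie on chromosome 8. Smaller ratios were those of the laminin chain Lama1 at 0.31 ± 0.17 and the parathyroid hormone receptor Pth1r at 0.43 ± 0.05, both named after their values were seen. These genes are also expressed by fibroblasts and other mesenchymal cells.

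**Figure D3:**
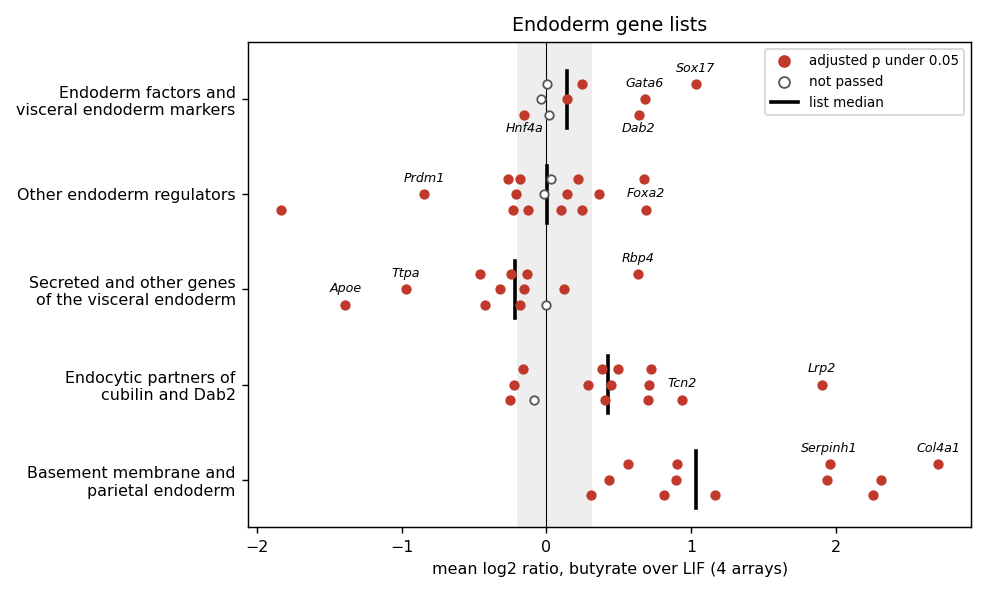
Mean log2 ratio of butyrate over LIF over 4 arrays for each tested gene of the endoderm lists, filled where the adjusted p is under 0.05, with the list median as a bar. The grey band holds the middle 50% of all genes (−0.20 to 0.31). The basement membrane list lies wholly above 0, the secreted list mostly below it, and the 9 tested genes of the set described here spread around a median of 0.14.

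Markers of trophoblast and fibroblasts had larger median ratios than the endoderm set. All 7 tested trophoblast markers of 8 were higher in butyrate, with a median log2 ratio of 2.40, among them Cdx2 (2.77 ± 0.45), Krt7 (2.59 ± 0.07), Hand1 (2.53 ± 0.20) and Gata3 (2.40 ± 0.38), while Tpbpa was not tested and Elf5 (0.39 ± 0.16) was above background on no LIF array. Among all genes 41.3% passed as higher. Tfap2c had the smallest ratio of the 7, at 0.15 ± 0.11. It did not pass with an offset of 16, by the scanner software, in the authors' deposited table, or without replicate 1 or 3. The sum of the linear levels of the 7 trophoblast markers, in which bright probes weigh most, was 17683 to 20103 in butyrate and 5405 to 6298 in LIF. Of the 8 fibroblast markers 7 were tested, 6 were higher and 1, Thy1, was lower at −0.18 ± 0.06 but at 0.40 with centring on the median. The list median was 1.28. They included Col1a1 (4.15 ± 0.16), Postn (3.22 ± 0.47), Col1a2 (1.72 ± 0.13), Pdgfrb (1.28 ± 0.13) and Col3a1 (0.91 ± 0.23), and their sum was 10260 to 10682 in butyrate and 1842 to 2154 in LIF. The other tested Col1a1 probe gave 2.09. Dcn (0.09 ± 0.04, but −0.029 with centring on the median) was above background on no LIF array, and Lum was not tested. With any 1 replicate left out, without the replicate block or without the filter on dim probes, Dcn did not pass.

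Undifferentiated stem cell markers were lower for 7 of 8, where 33% of all genes were lower. The markers had a median log2 ratio of −1.31 and a sum of 101725 to 111622 in butyrate and 157124 to 168054 in LIF. Pou5f1, the central pluripotency factor, had levels of 11.33, 11.40, 11.60 and 11.38 in butyrate, against 12.96, 13.25, 13.09 and 12.71 in LIF, and was 2.98-fold lower in butyrate. Nanog was the exception, at 0.23 ± 0.05, and Zfp42, lower at −0.19 ± 0.10, was at 0.27 with centring on the median. Dppa5a, 1 of the 7 that were lower, was saturated in both channels, so its ratio is uncertain. With centring on the median Dppa5a did not pass, at −0.19 (limma, adjusted p = 0.264). Without Dppa5a the sum was 50032 to 56718 in butyrate and 78459 to 84445 in LIF. All 8, the defining markers of the labelled cell type, were well above background in both groups. The 9 tested genes of the endoderm set summed to 2256 to 2381 in butyrate and 1739 to 1898 in LIF. The part of the other cell types' markers in the endoderm values was not tested.

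The ratios of the dim members depended on how the signals were scaled. For Afp the log2 ratio was 0.25 with the offset of 50, 0.45 with an offset of 16, 1.77 by the scanner software and 1.67 in the authors' deposited table. For Sox17 the same 4 gave 1.03, 1.22, 1.44 and 1.43, and for Dab2 0.64, 0.70, 0.69 and 0.69. The second Hnf4a probe gave −2.61 by the scanner software, against −0.42 with the offset. Centring on the median without loess moved the median of all genes to 0.41, and the share of passing genes that were higher in butyrate was then 92.1%, against 55.6% with loess. On that scale Gata6 was at 1.15, Dab2 at 1.16 and Sox17 at 1.50, above the shift of all genes, whereas Cubn at 0.42 and Amn at 0.58 lay near it and Sox7 and Afp, at 0.28 and 0.21, below it.

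**Figure D4:**
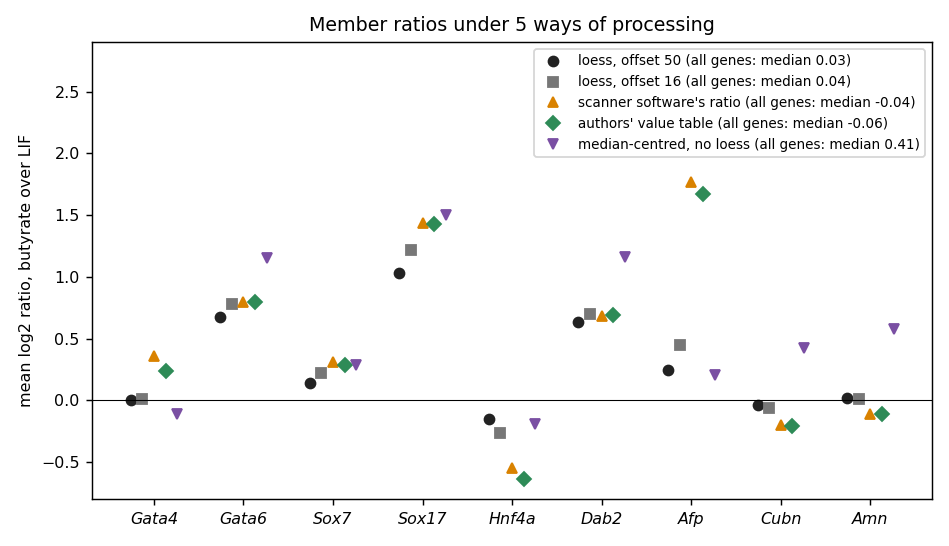
Mean log2 ratio of butyrate over LIF of the 9 tested genes under 5 ways of processing the same scans, with the median of all genes for each in the legend. Sox17, Gata6, Dab2, Sox7 and Afp lie above 0 and Hnf4a below 0 in all 5, Afp varies from 0.21 to 1.77, and Gata4, Cubn and Amn change sign.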

How the data were processed

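Per the labels, Cy5 marked butyrate RNA and Cy3 marked LIF RNA. Among 8 deposited scanner files 4 were distinct, 1 per array. Per the submitters' processing notes, scans were read with Agilent Feature Extraction 9.1, and the deposited files hold intensity values for every spot in each channel. Per the file headers, they also give a log10 ratio of Cy5 over Cy3 after that software's background subtraction and dye normalization. The authors' value table holds log2 values whose columns correlated at 0.9996 or more with the processed signal of their own channel and share a median of 6.487.

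With limma 3.58.1 (R 4.3.3), mean signals and median backgrounds went through normexp (offset 50) and loess with control spots at weight 0. Spots of a probe were averaged, and such a probe counted as above background where most of its spots were. Of 45018 spots per array 43379 were not controls, and 14 outlier spots were set to missing. The test was lmFit and eBayes on 4 log2 ratios against 0, with Benjamini-Hochberg adjustment over 25658 probes. Levels come from loess and Aquantile. Where a probe was above background in no sample of a group, a bound took, per array, the higher of its own level and the lowest signal among probes above background. For Hnf4a and Afp this was the probe's own level, so the bound equals the fold of the ratio. It is open to dye bias. Genes other than the 10 were named through accession (22951 probes), symbol (6659) or synonym (3109) in the RefSeq table of GRCm38.p6, and 8455 kept the file's name. 1 further probe, not tested, is assigned to Dab2 by that table and was not counted.

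The ratio within an array blocks by replicate number, since both samples of a number share an array. As a check, residuals around the group means of samples with the same number correlated at 0.298, 0.158, 0.306 and 0.226, against −0.214 to 0.101 for other pairs. The members and lists were chosen with earlier results of these data known. Named genes are the 10 members with all probes, up to 4 genes per list with the largest change that passed, the markers, and the 3 genes nearest to the most changed member. 1 gene that this rule picks is not reported here. Alternatives were other background corrections, scalings, filters, ways to combine probes, no replicate block, each replicate left out and the authors' table. Simulated data were used to test the code. All arrays lay on 1 slide, so no batch was tested. Figures come from matplotlib 3.10.9 under Python 3.11.15.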

Additional observations from a re-analysis of the deposited data

Results flagged for a closer look

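The 4 ratios of each tested named gene were examined, and for the tested members also the 4 levels of each group. Of these 67 sets of 4 values, 7 had 1 array standing apart from the other 3, all of them ratios. Chance alone sets 1 apart in about 1 of 20 such sets. Among the endoderm genes this was Afp, whose log2 ratio was 0.091 on array 2 and 0.29 to 0.32 on the others. Array 2 also stood apart for Plat at 1.92, Postn at 2.51, Gata3 at 1.84 and Soat2 at −0.28, each nearer to 0 than on the other arrays. Array 1 stood apart for Sox2 at −1.11 and array 3 for Tcn2 at 1.14.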

How the results depend on the processing

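The limits are 4 arrays of 1 dye orientation, an offset that shrinks dim ratios, and signals near background for Gata4, Hnf4a, Sox7 and Afp. Sox17, Gata6 and Dab2 passed as higher under every alternative run, by the brightest probe or the mean of the tested probes. The other Gata6 probes did not show this difference. Of the values for single genes under alternatives, 603 kept their direction and side of the threshold, 13 reversed, 16 no longer passed and 1 newly passed. The cause of these changes was not tested. Gata4 reversed to −0.11 with centring on the median, and to −0.013 and −0.0049 without replicates 1 and 2, and was at most 0.025 over the replicates left out (without replicate 3). Cubn reversed to 0.42 with centring on the median (limma, adjusted p = 0.0301), and to 0.035 without replicate 3 or 4, and was at least −0.13 over the replicates left out (without replicate 1). Amn reversed to −0.016 without background correction, −0.11 by the scanner software (limma, adjusted p = 0.0591), −0.0049 without replicate 1 and −0.11 in the authors' deposited values (limma, adjusted p = 0.0499), was at most 0.031 over the replicates left out (without replicate 4), and passed as higher at 0.58 with centring on the median. The same centring turned Zfp42 to 0.27, Thy1 to 0.40 and Dcn to −0.029.

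Among the 10 genes, those lower were 1, but 0 with centring on the median and 2 in the authors' table. Those at 2-fold higher were 1, but 2 by the scanner software, 3 with centring and 2 in the authors' table. With centring on the median, 10 basement membrane genes reached 2-fold higher instead of 6, 0 endocytic partners were lower instead of 3, 4 other regulators were higher and 2 lower instead of 7 each, and 4 secreted genes were lower instead of 9. That centring moved the median log2 ratio of all genes to 0.41. On it 62.2% of all genes passed, and 92.1% of those were higher. The share of all genes at 2-fold higher was not counted on that scale. With probes required above background in both channels, 3 other regulators and 1 secreted gene were higher, from fewer genes tested. Leaving out each replicate in turn gave 4 to 5 of the 10 genes higher, 0 to 1 lower (0 without replicate 3) and 0 to 1 at 2-fold higher (0 without replicate 1). It gave 4 to 7 other regulators higher (4 without replicate 3) and 5 to 7 lower, 1 to 2 secreted genes higher (1 without replicate 1, 3 or 4) and 7 to 8 lower, 10 endocytic partners higher and 3 lower, and 12 basement membrane genes higher with 6 to 7 at 2-fold.

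Without the replicate block (no replicate block) the ratios were the same, and 5 of the 10 genes were higher and 1 lower. Among other regulators 5 were then higher instead of 7, and Dcn no longer passed (limma, adjusted p = 0.0706). It changed no other call among the genes named.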
